A study of Rattus norvegicus with 14 samples.

Results

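Ribosomal protein genes encode the proteins that, with ribosomal RNA, form the large and the small subunit of the cytosolic ribosome. The members were the genes that the platform annotation of the array gives alone for a probe set under a symbol of the Rpl or Rps series, Rplp0 or Rpsa, without the Rps6k kinases. They numbered 42 of the 10411 singly named genes on the array, 29 of the large and 13 of the small subunit, and they were measured by 47 of its 15923 probe sets. A probe set is a group of short oligonucleotides that measures a stretch of a transcript. Each gene was read at its brightest probe set, by the mean over all arrays. Several other ribosomal proteins, such as Rpl13, Rps2 and Rps19, share their probe sets with pseudogenes or copies in that annotation and are therefore no members.

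RNA of the hippocampal subfield CA3 was measured in 14 samples from male Long-Evans rats aged 3 to 4 months, each labelled a biological replicate and put on 1 Affymetrix RAE230A array. A sample is taken here as 1 rat, since pooling is not stated. All of them had first learned a standard water maze, and 2 to 3 weeks later they swam 8 trials at 8-min intervals in an unfamiliar pool. In the learning activated group (7 rats, called learning here) the pool had orienting cues and a visible platform in a fixed place, and in the control group (7 rats) the visible platform changed its place and the cues were missing. A 90-s probe trial without a platform followed 1 h after training, and the tissue was dissected at once. Cues and platform movement differ together between the groups, so their effects cannot be told apart. Markers of the tissue were present: the glutamate transporter gene Slc17a7 had a mean log2 level of 12.02 and the CA3 kainate receptor gene Grik4 one of 7.95. Markers of other cells were present too, with the myelin gene Mbp at 13.66 and the astrocyte gene S100b at 12.80. Of the dentate granule cell markers, Calb1 was at 8.27, Prox1 at 5.25, Dsp at 3.24 and Tdo2 at 2.56. These levels do not show how pure the dissection was.

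A cell makes all ribosomal proteins in near equal numbers, and their genes are among the most actively transcribed ones. Their mRNAs start with a pyrimidine stretch, the 5' terminal oligopyrimidine tract, through which mTOR signalling sets their translation as a group. In neurons the mRNAs of many ribosomal proteins are found in dendrites and axons as well as in the cell body, and protein synthesis is needed for long-lasting memory.

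Ribosomal protein transcripts were slightly less abundant in the learning animals, by a similar small amount in most members. Of the 42 genes 38 had a log2 fold change (learning minus control) below 0, with a median of -0.10 over all 42. Over the brightest probe sets of all 6836 tested genes 63.9% were below 0 (58% of all tested probe sets) and the median was -0.03. In limma, with p-values adjusted by Benjamini-Hochberg over all 9520 probe sets tested, 5 members fell (adjusted p under 0.05): Rpl5, Rpl11, Rpl4, Rpl18 and Rpl34, all of the large subunit, and 0 rose. The background for a decrease was 0.798% of all tested probe sets, or 0.98% of the brightest probe sets of all genes, and for an increase 2.55% of all tested probe sets. Without adjustment 25 members were lower and 0 higher at that threshold, against 10.6% lower and 9.34% higher of all tested probe sets and 12.3% lower of the brightest ones of all genes. A change in bulk tissue can come from fewer cells of a type or from less of the RNA per cell, and these cannot be told apart here.

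**Figure D1:**
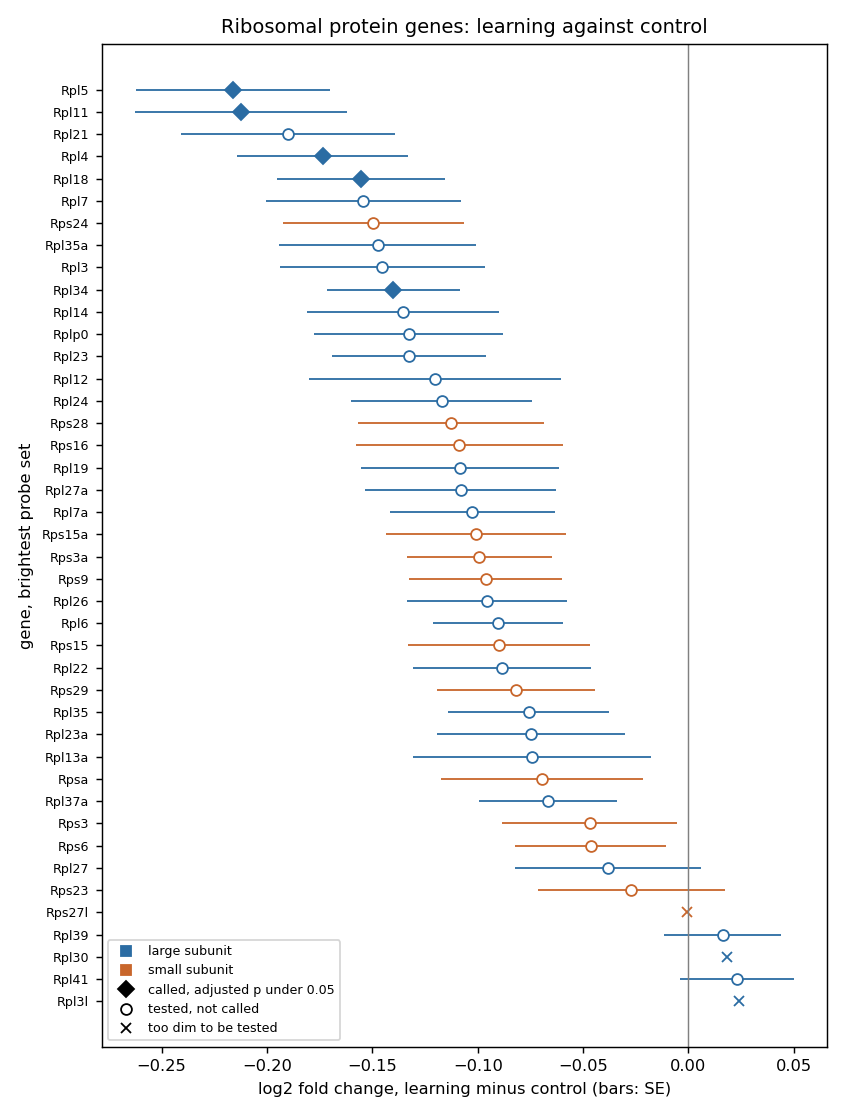
Log2 fold change (learning minus control, x axis) of the 42 ribosomal protein genes (y axis), each at its brightest probe set, with the standard error as bars. Filled diamonds mark the 5 genes that passed the adjusted threshold, open circles the tested genes that did not, and crosses the 3 genes too dim to be tested; 38 of the 42 points lie left of 0.

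Only 39 of the 42 genes were bright enough to be tested, since probe sets with a mean log2 level under 3.88 were left out. The other 3 were Rpl30 (2.79), Rpl3l (3.10), the paralog of Rpl3 used in muscle, and Rps27l (2.78). The other probe sets of Rpl30 name further genes too, so the dim one stands alone here. A further member, Rpl39, was measured at 5.69. The remaining 38 members lay between 9.75 (Rpl18) and 13.29 (Rps29), and 36 of them were among the brightest 10% of tested probe sets, a class that begins at 9.99. The limit of 9 that separates these bright members was chosen after the values were seen. The probe sets of different genes bind with different strength, so the levels do not rank the mRNAs.

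The family mean separated the groups. Averaged over all 42 genes, the control arrays had log2 levels of 10.71, 10.75 and 10.84 (lowest, median, highest) and the learning arrays of 10.60, 10.67 and 10.70. The highest learning array thus lay under the lowest control array, by less than either group's own range. Among the controls, replicates 1, 2 and 5 were the highest (10.81, 10.84 and 10.80) and the other 4 lay between 10.71 and 10.75. Learning replicate 4 was the lowest of all arrays, with 40 of the 42 genes under their 14-array mean. In 24 of the 38 bright genes all 7 learning animals lay below the control mean, and in 9 more it was 6 of 7. The bright members vary together over the same arrays (median Pearson r 0.42 within groups), so these genes are no independent replicates. The same count was not made over all genes. The number of genes under their 14-array mean ran in the controls from 3 (replicate 2) to 23 (replicate 4), and in the learning arrays from 25 to 40.

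The large subunit genes had somewhat larger differences than those of the small subunit. Over the 29 large subunit genes the mean log2 level was 10.68 ± 0.05 in control and 10.58 ± 0.03 in learning arrays (SD, n = 7 each), and the groups did not overlap (lowest control 10.63, highest learning 10.62). Over the 13 small subunit genes it was 10.94 ± 0.06 and 10.86 ± 0.03, with overlap (lowest control 10.87, highest learning 10.89). The median log2 fold change was -0.11 for large and -0.09 for small subunit genes. The difference between the subunit means within an array was -0.25 ± 0.02 in control and -0.28 ± 0.01 in learning arrays, a shift of -0.02 with overlapping ranges. Control replicate 5 (-0.29) was lower than 6 of the 7 learning arrays. Of the large subunit genes tested, 18 of 27 had an unadjusted p under 0.05 and 5 passed the adjusted threshold, and of the small subunit genes 7 of 12 and 0 of 12. No p is given for these means, since the members were chosen with results of these arrays known.

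**Figure D2:**
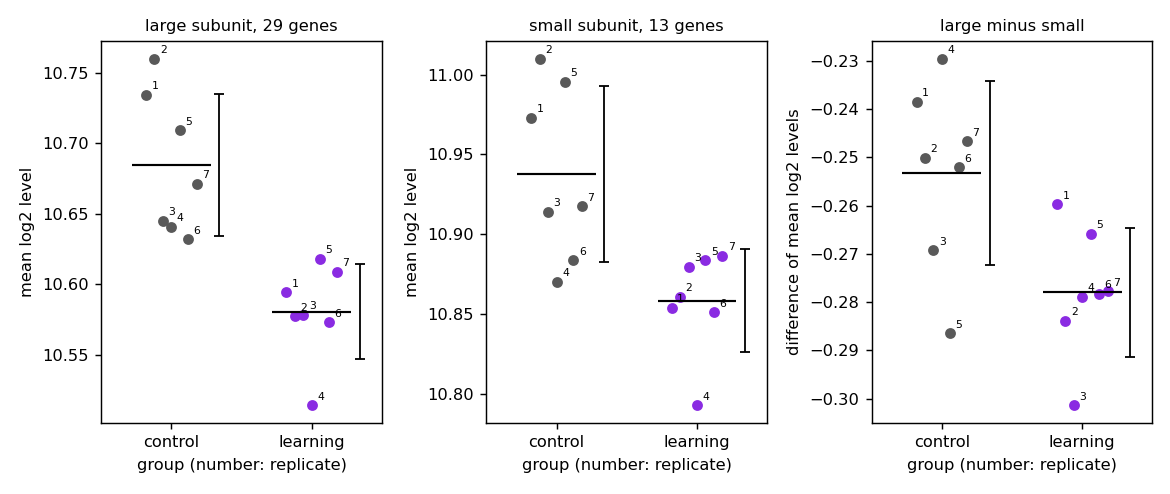
Mean log2 level of the 29 large subunit genes (left), of the 13 small subunit genes (middle) and their difference (right) in each array, with replicate numbers beside the points, the group mean as a line and the SD as a bar; the y axes do not start at 0. Large subunit means do not overlap between the groups, while the small subunit means and the difference do.

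The largest decreases were those of Rpl5 and Rpl11, the proteins that bind 5S ribosomal RNA and enter the large subunit with it as a particle, and that bind the p53 regulator Mdm2 when free. Rpl5 had log2 levels of 11.82, 11.95 and 12.07 (lowest, median, highest) in the control and of 11.64, 11.71 and 11.83 in the learning arrays. All 7 learning animals lay below the control mean and 5 of them below every control. Rpl5 fell by 0.22 on the log2 scale (SE 0.046, limma adjusted p = 0.0209), a ratio of 0.861.

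Rpl11 had 10.90, 11.07 and 11.19 in the control and 10.74, 10.80 and 10.96 in the learning arrays. It fell by 0.21 (SE 0.0504, limma adjusted p = 0.0361), with 7 of 7 learning animals below the control mean and 4 below every control. The 2 genes were the whole list of 5S particle proteins.

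Among the other called genes, Rpl4 encodes a core protein that reaches into the peptide exit tunnel, and Rpl18 and Rpl34 encode proteins found in eukaryotic large subunits. Rpl4 had 11.39, 11.49 and 11.62 in control and 11.23, 11.32 and 11.41 in learning arrays, and it fell by 0.17 (SE 0.0405, limma adjusted p = 0.0333). Rpl34 had 11.50, 11.57 and 11.65 against 11.36, 11.44 and 11.50, and it fell by 0.14 (SE 0.0316, limma adjusted p = 0.0298). For each of these 2 genes 6 learning animals lay below every control and 1 overlapped.

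Rpl18 had 9.74, 9.82 and 9.93 in control and 9.57, 9.70 and 9.73 in learning arrays, with no overlap, and it fell by 0.16 (SE 0.0398, limma adjusted p = 0.0464). Rpl6 also had groups that did not overlap (11.42 to 11.51 in control, 11.29 to 11.41 in learning arrays) but did not pass (-0.09, limma adjusted p = 0.117). These were 2 of the 39 tested members, while such a separation with learning lower was found in 0.368% of all tested probe sets and 0.453% of the brightest ones of all genes.

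**Figure D3:**
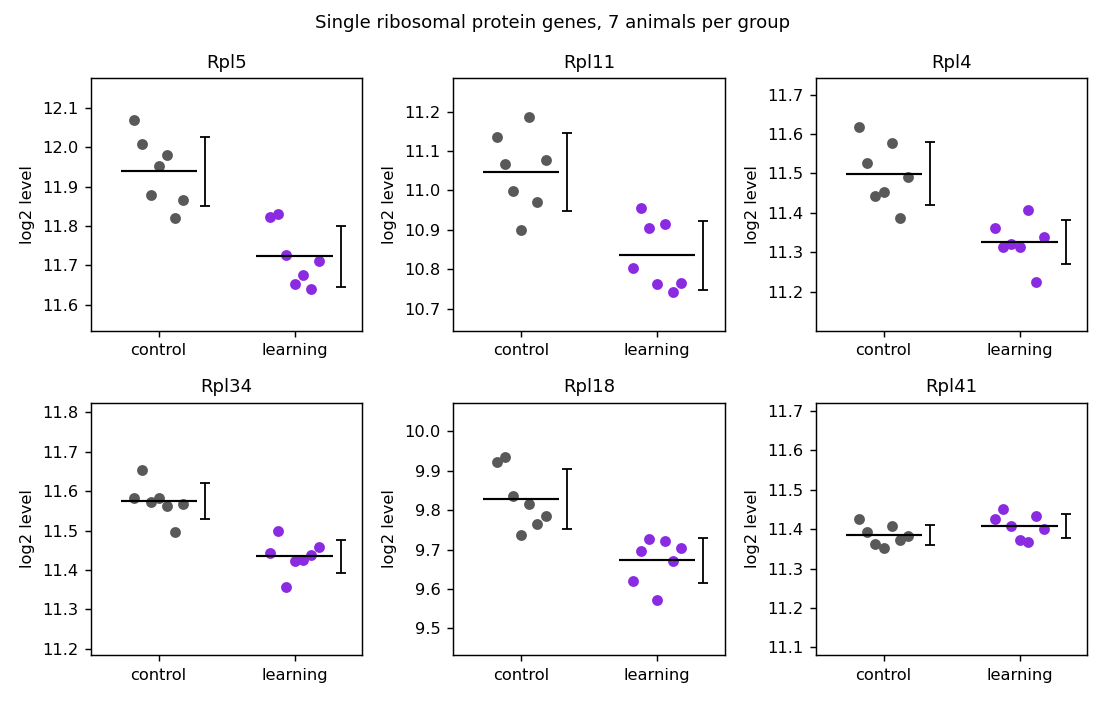
Log2 level of 6 ribosomal protein genes in each animal (points), with the group mean as a line and the SD as a bar beside it; all panels span the same range of log2 units and do not start at 0. Rpl5, Rpl11, Rpl4, Rpl34 and Rpl18 are lower in the learning group, and Rpl41 lies at 11.35 to 11.45 in both groups.

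The 5 calls rested on the animals and on the model used. Their count dropped to 1 when control replicate 1, control replicate 2, learning replicate 4 or learning replicate 6 was left out. It was 2 without control replicate 3, control replicate 5, learning replicate 3 or learning replicate 7, and 3 without learning replicate 1 or 5. It was 0 with the Gapdh 3'/5' ratio, a measure of RNA integrity, as a covariate (15 members lower at an unadjusted limma p under 0.05). It was also 0 without control replicate 5 and learning replicate 6, the 2 arrays least like the others (20 lower unadjusted). Of 30 alternatives Rpl5 passed in 27, Rpl4 and Rpl34 in 16 each, Rpl11 in 12 and Rpl18 in 9. All 5 kept a fold change below 0 in each of them, and the family median stayed between -0.11 and -0.06.

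The remaining large subunit genes had smaller or more variable differences and did not pass. Rpl21, a protein of the eukaryotic large subunit, had -0.19 (limma adjusted p = 0.0557) with control levels of 10.83 to 11.21 and learning levels of 10.77 to 10.89, and 6 of 7 learning animals lay under every control. Rpl7 had -0.15 (adjusted p = 0.0826 in limma) and Rpl23 -0.13 (0.0607). Rpl35a had -0.15 (adjusted p = 0.0970 in limma), as did Rpl3 (0.112), the brightest member of the large subunit at 12.67, whose protein lies near the peptidyl transferase centre. Rpl26 (12.48) and Rpl27a (12.33) followed in brightness, with -0.10 and -0.11.

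In the stalk, the flexible arm to which translation factors bind, Rplp0 had levels of 11.08, 11.15 and 11.40 in control and 11.01, 11.03 and 11.12 in learning arrays (-0.13, limma adjusted p = 0.114). Its neighbour at the stalk base, Rpl12, had -0.12 with wide spread in both groups (adjusted p = 0.280 in limma). The other stalk genes on the list, Rplp1 and Rplp2, are no members. At the rim of the exit tunnel, where chaperones and the signal recognition particle meet the new peptide, 6 of 9 listed genes were members. None of the 6 passed in limma and 2 had an unadjusted p under 0.05, with -0.11 for Rpl19, -0.10 for Rpl26, -0.09 for Rpl22, -0.08 for Rpl35, -0.07 for Rpl23a and 0.02 for Rpl39.

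Members near or above 0 were few. Rpl41, which encodes a very short basic peptide at the interface of the subunits, had levels of 11.35, 11.38 and 11.42 in control and 11.37, 11.41 and 11.45 in learning arrays, a difference of 0.02 (SE 0.0270, limma adjusted p = 0.685). Its probe set was bright, with a mean level of 11.40. The dim Rpl39, Rpl30 and Rpl3l had 0.02 each. Rpl27 had -0.04 (adjusted p = 0.680 in limma). In the small subunit the untested Rps27l had -0.000587.

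In the small subunit 12 of 12 tested genes had a fold change below 0 and 0 passed in limma. Rps24, a protein mutated in some patients with Diamond-Blackfan anaemia, had the largest difference: control levels of 12.10, 12.21 and 12.32 and learning levels of 11.98, 12.06 and 12.17 (-0.15, SE 0.0430, limma adjusted p = 0.0710). All 7 learning animals lay below its control mean, and the groups overlapped. Next came Rps28 (-0.11, adjusted p = 0.169 in limma), which lies where the mRNA leaves the subunit, and Rps16 (-0.11, 0.230).

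The smallest differences of tested small subunit genes were those of Rps23 (-0.03), a protein of the decoding site, Rps6 (-0.05) and Rps3 (-0.05), a protein of the mRNA entry channel with a second role in DNA repair. Rps6 is the substrate of the S6 kinases, whose phosphorylation is widely used as a sign of neuronal activity; its mRNA had levels of 11.56, 11.65 and 11.75 in control and 11.54, 11.64 and 11.67 in learning arrays (limma adjusted p = 0.504). Rps15, also of the decoding site, had -0.09 and Rps29, the brightest member of all at 13.29, had -0.08 (adjusted p = 0.235 in limma). Rps3a (12.15) had -0.10. The dimmest of the tested small subunit genes was Rpsa (10.03), which also serves as a laminin receptor, with -0.07.

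A few genes had more than 1 singly named probe set. The 3 of Rpsa gave -0.07, -0.12 and -0.04, none of them passing in limma. Rpl7 had -0.15 at its brightest and 0.07 at a dim one (mean level 5.67, adjusted p = 0.705 in limma), where the learning arrays had an SD of 0.25 against 0.08 in the controls. The other probe sets of Rps24 and Rpl14 were under the level needed for a test, at 3.21 and 2.32.

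Probe sets that name several genes, a ribosomal protein of the same naming among them, were left out of the members and give a second reading of the family. There were 32, of which 31 were tested. All 32 had a fold change below 0, with a median of -0.09, and among the 31 the range was -0.16 to -0.03. None passed in limma and 18 were lower at an unadjusted p under 0.05. They come from the same 14 RNA samples and may bind transcripts of several copies, so they are no independent replicate.

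Other bright probe sets were set beside the members, in classes of brightness chosen with the values known. The 886 other probe sets of the brightest 10% had a median log2 fold change of -0.01, and 54.9% of them were below 0. Their mean level was 10.980 in control and 10.984 in learning arrays, slightly higher in the latter (two-sided exact permutation p = 0.0122). The arrays were normalized together and the set leaves out the ribosomal protein probe sets, so its level is not independent of theirs. Control replicates 1, 2 and 5, the highest for the members, were the lowest of all arrays here. This p is therefore no separate finding. When each array was centred on those probe sets, the median of the 42 members was -0.10 and the same 5 genes passed. That centring could change little, since the set differed by only 0.0046 between the groups. The correlation of fold change with level was 0.16 across the 38 bright members and -0.20 across all 39 tested ones (Pearson r across genes, which are no independent replicates).

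**Figure D4:**
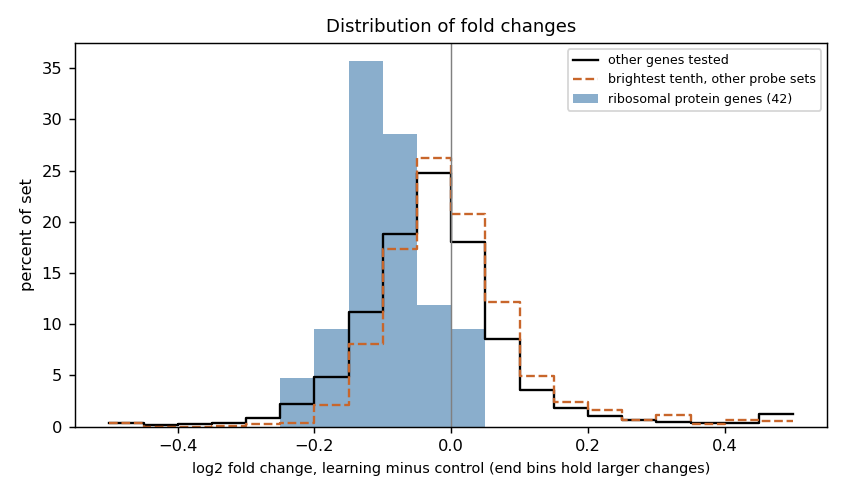
Distribution of log2 fold changes (learning minus control, x axis; percent of each set, y axis) for the 42 ribosomal protein genes (bars), for the other tested genes at their brightest probe sets (solid line) and for other probe sets of the brightest 10% (dashed line). The bars centre on the median of -0.10, and both lines centre near 0.

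The members also varied together among animals of the same group. After the group means were subtracted, the median Pearson correlation between 2 bright members across the 14 arrays was 0.42 (703 pairs), and 93.7% of pairs were above 0. It was 0.41 within the large subunit, 0.41 within the small and 0.44 between them, so pairs of the same subunit were no closer than mixed pairs. Pairs of other probe sets of the brightest 10% had a median of 0.0031, with 50.4% above 0. All pairs share the arrays, and with them the RNA preparation, labelling and normalization. Rpl7 followed the mean of the other bright members most closely (r = 0.88), before Rpl19 and Rps6 (0.84 and 0.83). Rpl7a (0.22), Rpl27 (0.29) and Rpl37a (0.33) followed it least, and the most decreased genes, Rpl5 (0.57) and Rpl11 (0.59), lay between.

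The start sites of the members were searched for pyrimidine runs, a feature that the choice of genes did not use. The stretches below run from 15 bases before to 15 bases from the annotated start, 5' to 3', with the longest run of C and T in capitals, as read from RefSeq promoters of build GRCr8. They are shown for the 5 called genes and for Rpl41, which lay at the other end of the fold changes.
Rpl5, chr14:1995211-1995240, minus strand: aCTCTCTTTCCCacgtcgcttgcgtcctgg
Rpl11, chr5:153560788-153560817, minus strand: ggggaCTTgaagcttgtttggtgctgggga
Rpl4, chr8:73566462-73566491, plus strand: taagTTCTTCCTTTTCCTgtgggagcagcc
Rpl34, chr2:221962269-221962298, minus strand: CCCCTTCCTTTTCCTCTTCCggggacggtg
Rpl18, chr1:105325255-105325284, plus strand: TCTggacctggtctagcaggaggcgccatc
Rpl41, chr7:1563483-1563512, minus strand: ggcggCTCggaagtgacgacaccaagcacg

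A promoter entry was found for 37 of the 42 members. An unbroken run of at least 8 pyrimidines (C or T) on the transcript strand lay in the 30-base window of 22 of them, 59.5%, against 11.4% of the promoters of all 27457 genes in that table. On the opposite strand such a run was found in 1 member (2.70%) and in 3578 of all genes. Rpl5, Rpl4 and Rpl34 held one, of 11, 14 and 20 bases, and Rpl11, Rpl18 and Rpl41 did not. The runs of Rpl4 and Rpl34 covered the annotated start, while that of Rpl5 ended before it. A run in the window is thus not always part of the annotated transcript. The first base was C or T in 21 of 37 members (56.8%) and in 39.6% of all genes. The motif CCGGAAG, on either strand of the 300-base promoter, was found in 8 of 37 members and 9.22% of all genes, among them Rpl34, Rpl11 and Rpl41. The bright members with a run had a median log2 fold change of -0.11 (22 genes) and those without one of -0.10 (12 genes). Their ranges were -0.22 to -0.03 and -0.21 to 0.02. The genes without one include Rpl12 and Rps3a, whose runs of 7 bases cover the annotated start. The split at 8 bases thus does not sort the genes by a tract at the transcript start. An annotated start can lie some bases from the true one, and a match is a description of the letters in this window.

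Other genes of the translation apparatus were counted in the same fit, from lists chosen with results of these data known. Of 70 tested genes of the mitochondrial ribosome, whose proteins are encoded in the nucleus, 3 fell and 0 rose, and 61 (87.1%) were below 0 (median -0.06). Among the brightest probe sets of all genes 0.98% fell and 63.9% were below 0. Those that fell were Mrpl58 (-0.25, limma adjusted p = 0.0181), a peptide release factor within that ribosome, Mrpl23 (-0.19, 0.0250) and Mrps6 (-0.22, 0.0366). Next by p came Mrpl27 (-0.12, adjusted p = 0.0716 in limma) and Mrpl20 (-0.12, 0.0918). Of 51 tested genes of ribosome biogenesis 1 fell and 0 rose, and 38 (74.5%) were below 0 (median -0.04). The decrease was in Eif6 (-0.18, limma adjusted p = 0.0136), which keeps new large subunits from joining small ones too early. Nop58, a protein of the nucleolar methylation complex, had -0.16 (adjusted p = 0.133 in limma), and Mrto4 -0.25 (0.213).

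A further list took all genes with symbols of the initiation and elongation factors. It therefore also holds regulators of these factors, such as Eif2ak1, Eif2ak2, Eif2ak3, Eif2ak4, Eef2k, Eef1akmt1, Eif4ebp2 and Eif4enif1. Of its 52 tested genes 4 fell, Eif6 again among them, and 0 rose, and 31 (59.6%) were below 0 (median -0.04). The others were Eif3b (-0.24, limma adjusted p = 0.0100) and Eif3k (-0.20, 0.0366), subunits of the large initiation factor that binds the small subunit, and Eif4b (-0.15, 0.0464), the cofactor of the initiation helicase. Eif4h had -0.13 (adjusted p = 0.0863 in limma) and Eif4g2 0.12 (0.0937). Of 22 tested genes of mTOR and S6 kinase signalling 0 passed in limma (without adjustment 1 higher and 1 lower), 13 (59.1%) were below 0, and the median was -0.02. In that list Pdcd4, a translation inhibitor degraded after S6 kinase action, had 0.16 (adjusted p = 0.143 in limma) and Rragc, a GTPase that senses amino acids, -0.09 (0.224). Rack1, a scaffold bound to the small subunit and the only measured gene of its list, had -0.15 (adjusted p = 0.110 in limma).

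**Figure D5:**
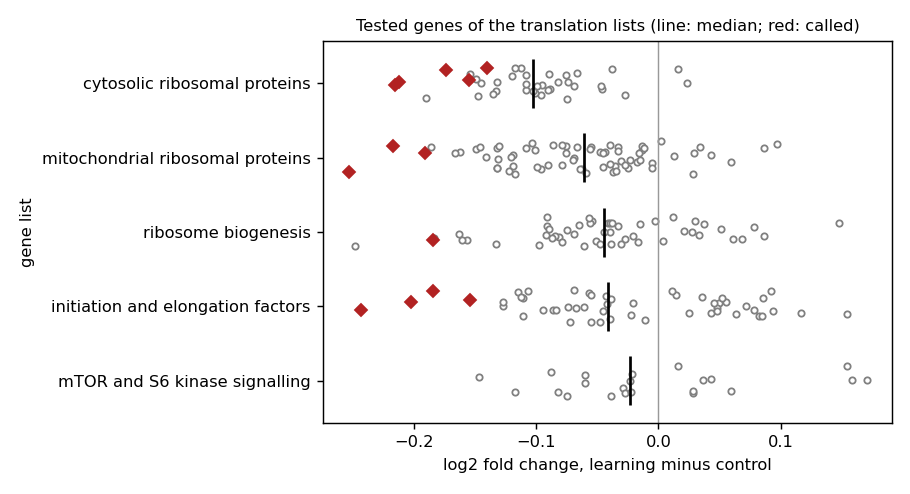
Log2 fold change (learning minus control, x axis) of each tested gene in 5 lists of translation genes (y axis), with the median as a vertical line and called genes as red diamonds; vertical position within a list has no meaning. The medians are -0.10 for cytosolic ribosomal proteins, -0.06 for mitochondrial ones and -0.02 for mTOR signalling. They are -0.04 for biogenesis genes and for genes with symbols of the initiation and elongation factors.

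Markers of cell types and signs of RNA quality moved with the groups in part. The 4 pyramidal neuron markers on the array averaged 10.37 in learning and 10.03 in control arrays (two-sided exact permutation p = 5.83e-04, not adjusted for the number of lists), with summed log2 levels of 41.0 to 42.1 against 39.0 to 40.8. Camk2a was the 1 called marker of that list and had the largest difference (0.76). Neurod2 had 0.33, Slc17a7 0.14 and Nrgn 0.12. The 6 choroid plexus markers had summed levels of 21.6 to 24.0 in learning and 23.9 to 28.3 in control arrays (exact permutation p = 0.00117), and 4 of them were too dim to be tested. Ttr, which encodes transthyretin, was the 1 called gene there (lower). The other 8 lists, the CA3 subfield and dentate granule cells to red blood cells, had exact permutation p-values of 0.0758 or more. The 2 CA3 subfield markers on the array, Grik4 and Bok, differed by -0.0022 on average (exact permutation p = 0.967). The Gapdh 3'/5' log2 ratio was 0.45 ± 0.05 in learning and 0.51 ± 0.06 in control arrays (exact permutation p = 0.0443, not adjusted). With the Gapdh ratio as a covariate the median of the members was -0.09. The same ratios of actin and hexokinase differed by -0.05 and -0.22, learning minus control (exact permutation p = 0.46 and 0.281). Control replicate 5 had the highest Gapdh, actin and hexokinase ratios of all arrays (0.64, 1.65 and 2.57). The balance of dimmer against brighter probe sets of the same gene, over 350 genes, was -3.25 ± 0.03 in learning and -3.42 ± 0.11 in control arrays (exact permutation p = 5.83e-04). The groups did not overlap in this balance (-3.65 to -3.34 in control, -3.30 to -3.20 in learning arrays). As a covariate it can therefore take up part of any group difference. In that fit the median of the members was -0.06, and 0 members passed in limma (7 lower at an unadjusted p under 0.05). The spike-in level was 9.19 ± 0.17 in learning and 8.99 ± 0.12 in control arrays (exact permutation p = 0.00524), and with it as a covariate the median was -0.09 and 1 member passed. With the dentate marker level as a covariate the median was -0.09 and again 1 member passed. Of the 4 genes in that level, Dsp and Tdo2 were too dim to be tested, so it is a weak measure of dentate content. The part of the pyramidal neuron and choroid plexus markers in the lower ribosomal protein level was not tested.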

How the data were processed

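Log2 expression levels of 15923 probe sets were deposited as 1 column per array. The authors made these log2 values with GCRMA, per the submitters' processing notes, which models background from the probe sequences and then normalizes the arrays together. The version and settings are not stated in the labels. That the scale is log2 was read from the range of the values. Arrays have no read depth, and their number limits the precision. Samples were grouped by title. Genes came from GEO's platform annotation, with 12789 probe sets of 1 gene, 312 of several and 2771 unlisted, and 12754 of the single ones matched RefSeq's gene table (GRCr8). Members kept the annotation's symbol, and 40 of 42 matched by Entrez ID.

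The 57 control probe sets and 6346 probe sets with a mean under the 40th percentile (3.88) were left out. The linear model of limma 3.58.1 (R 4.3.3; lmFit, then eBayes) was run on the other 9520, learning minus control, without covariate, with Benjamini-Hochberg adjustment. "Rose" and "fell" mean an adjusted p under 0.05. On simulated data with 9520 probe sets the procedure recovered 17% of the changes of 0.15 and 85% of the changes of 0.4 (log2), with 6.42% false calls. For single values per array the test was an exact permutation test, two-sided, over 3432 assignments.

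The members and all lists were chosen with earlier results of these data known. Named were called members, the 3 largest differences each way, the 3 brightest and 2 dimmest per subunit, the members of the role lists and, per pathway list, up to 4 called genes and the 2 next by p. Genes named as furthest from or closest to the family mean, Rpl6 and the genes with an adjusted p near the threshold were chosen after their values were seen. Alternatives to the filter, variance moderation, normalization, covariates, probe set choice and animals included were run.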

Additional observations from a re-analysis of the deposited data

Results flagged for a closer look

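In 8 of 90 checked sets of 7 values, 1 animal lay far from the other 6 of its group. Chance alone gives about 1 in 20 for a single set. The sets share the same arrays and the members vary together, so the count cannot be read as an excess. Learning replicate 4 was the lowest of its group for Rpl26 (12.29, next 12.41), Rpl19 (12.03, next 12.16) and the small subunit mean (10.79, next 10.85). Learning replicate 1 was the highest for Rpl21 (10.89, next 10.81). Control replicate 1 was the highest for Rpl7a (11.95, next 11.83), and control replicate 2 for Rplp0 (11.4, next 11.2). The remaining 2 were dim, untested genes: Rpl30 in learning replicate 6 (2.85, next 2.81) and Rps27l in control replicate 1 (2.8, next 2.78).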

How the results depend on the processing

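Over 30 alternatives the median log2 fold change of the members stayed below 0. It was -0.0564 with the probe set balance as covariate, where the large minus small shift was -0.0447 and Rps23 (0.0522) and Rpl13a (0.0139) turned positive. That balance did not overlap between the groups, so this fit can take up part of any group difference. Rps23 also turned with the Gapdh ratio (0.0046) and Rpl39 with the spike-in level (-0.0045). Leaving out 1 array gave medians of -0.11 to -0.0855, subunit shifts of -0.0303 to -0.0208, 1 to 6 called members and 163 to 352 called probe sets. The 5 called members became 3 without a filter, 8 with trended and robust variance moderation and 2 with array weights. They became 1 with the hexokinase ratio, the spike-in level or the dentate markers, and 0 with the Gapdh ratio, with the probe set balance or without the 2 arrays least like the others (chosen after seeing the data; 20 members were lower there at an unadjusted limma p under 0.05, 15 with the Gapdh ratio and 7 with the balance). The 319 called probe sets (limma) became 158 without a filter, 39 with the Gapdh ratio, 143 with the spike-in level, 177 with the hexokinase ratio, 168 with the dentate markers, 0 with the balance (853 at an unadjusted p under 0.05) and 170 without the 2 arrays. The cause was not tested. With the replicate number as a block, 3 members (Rpl5, Rpl11 and Rpl4) were called. Deviations of same-numbered animals correlated between -0.156 and 0.128. Differently numbered animals were not compared, so these values cannot show whether the numbers pair the animals. Over genes and alternatives, the 5 called members lost their call in 70 cases, and Rpl21, Rpl23, Rps24, Rpl3 and Rps3a passed in 10. Simulated data with 9520 probe sets recovered 17% of changes of 0.15. The median difference of the members was smaller than that, and recovery among the members alone was not tested.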

Other observations

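The array carries a control probe set for 5S ribosomal RNA, the RNA that Rpl5 and Rpl11 bind. It had a log2 level of 1.27 in both groups (exact permutation p = 0.156), among the dimmest signals, so it gives no measure of that RNA. The spread between animals was larger in the control than in the learning group for 28 of the 38 bright ribosomal protein genes (73.7%), against 54.8% of the brightest probe sets of all genes and 55.5% of the other probe sets of the brightest 10%. The mean of the 38 bright genes had an SD of 0.057 in control and 0.037 in learning arrays. These genes vary together over the same arrays, so they are no independent replicates and the share cannot be read as an excess.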
